A study of Caenorhabditis elegans with 2 samples.

Results

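Small nucleolar RNA (snoRNA) genes that lie inside protein-coding genes were examined in a chromatin immunoprecipitation (ChIP-seq) experiment on the transcription factor UNC-39. All snoRNA genes of the Ensembl release 115 annotation (WBcel235, the assembly called ce11) whose whole body falls within the body of a protein-coding gene were taken, by annotation alone. They number 216 of the 346 annotated snoRNA genes, and of 46890 genes of all kinds on the 6 nuclear chromosomes, and they sit in 192 host genes. The other 130 snoRNA genes lie outside protein-coding bodies or overlap one in part. The worms were whole L4 larvae, pooled male and female, of strain OP186 with genotype unc-119(ed3) III; wgIs186, a line that stably carries UNC-39 with a GFP-FLAG tag at its C terminus. The labels call the 2 samples biological replicates 1 and 2 and place them in a single group, with no second genotype, stage or treatment. What drives the transgene is not stated in the labels, and chromatin came from all cells of the larva together.

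snoRNAs guide the chemical modification of other RNAs, mainly ribosomal RNA, in the nucleolus. Box C/D snoRNAs guide 2′-O-methylation by the enzyme fibrillarin, and box H/ACA snoRNAs guide the change of uridine to pseudouridine by the enzyme dyskerin. Many animal snoRNAs have no promoter of their own and are released from the introns of a host pre-mRNA, and hosts often encode proteins of ribosomes, translation or the nucleolus. UNC-39 is a homeodomain transcription factor related to the fly protein Sine oculis.

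The 216 genes are 54 to 325 bases long, with a median of 127, and have a G+C content of 23.6 to 61.1% with a median of 40.4%. Of these, 169 lie wholly in an intron of the host, 24 overlap an exon outside its coding part and 23 overlap a coding exon. A host on the same strand was found for 183, and 33 lie in hosts on the opposite strand only. RefSeq annotates 215 of them as snoRNA genes as well, and 215 have no other exact copy in the genome. Single genes were held by 168 hosts, 2 genes by 21, 3 by rpl-6 and top-2, and 4 by nol-56, while 4 genes lie in 2 overlapping hosts. The median distance from the host 5′ end was 1967.5 bases.

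The deposited lists hold 30000 regions each, 400 bases wide in the pooled list and in replicate 2 and 404 bases wide in replicate 1, and by design they keep background as well as peaks. Regions were ranked within each list by the authors' signal value, rank 1 being the strongest. A region was counted for a snoRNA gene where its summit, the single base of strongest signal, lay within 500 bases of the gene body. Regions of rank 1 to 3000 are called the top 3000. With 1 group of 2 samples no test was possible, so counts are described beside background shares. Read depth is unknown, so a weak region cannot be told from noise by depth. The authors' −log10 q near hosted snoRNA genes was at most 0.565 in the pooled list and 1.19 in replicate 1, so that no best region there reached a q-value of 0.05. In replicate 2 the best region of 10 genes reached it. Over the whole lists 60, 45 and 806 regions reached it in the pooled list, replicate 1 and replicate 2. Strong and weak below refer to rank within a list and not to a passed threshold.

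The sequences below belong to 6 of the 8 snoRNA genes with the best pooled ranks, and they are shown because the strongest regions lie beside them. They are read 5′ to 3′ on the strand of the snoRNA gene, from the RefSeq copy of the ce11 assembly. Capitals mark the ACA near the 3′ end that is typical of the H/ACA class, or the CTGA near the 3′ end that is typical of the C/D class, and 2 of them are unmarked. C27H5.9 (chrII:7184010-7184078, minus strand) and C27H5.10 (chrII:7184419-7184492, minus strand) lie in pdl-1. C50C3.13 (chrIII:8165540-8165672, plus strand) lies in prp-8. T06D8.11 (chrII:11224182-11224258, plus strand) lies in plpr-1. C06A1.8 (chrII:10560717-10560934, minus strand) lies in cdc-48.1. K07C5.10 (chrV:10351218-10351353, minus strand) lies in nol-56.
C27H5.9: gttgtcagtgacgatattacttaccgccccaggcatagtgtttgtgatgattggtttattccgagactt
C27H5.10: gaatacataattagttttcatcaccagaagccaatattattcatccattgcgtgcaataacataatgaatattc
C50C3.13: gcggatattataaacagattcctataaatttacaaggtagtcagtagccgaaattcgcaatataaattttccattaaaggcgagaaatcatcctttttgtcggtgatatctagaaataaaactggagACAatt
T06D8.11: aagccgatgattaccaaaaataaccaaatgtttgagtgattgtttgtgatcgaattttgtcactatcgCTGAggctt
C06A1.8: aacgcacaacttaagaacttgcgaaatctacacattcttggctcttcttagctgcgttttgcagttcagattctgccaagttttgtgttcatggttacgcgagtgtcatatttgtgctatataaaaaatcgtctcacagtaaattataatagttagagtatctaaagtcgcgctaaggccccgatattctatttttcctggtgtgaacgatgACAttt
K07C5.10: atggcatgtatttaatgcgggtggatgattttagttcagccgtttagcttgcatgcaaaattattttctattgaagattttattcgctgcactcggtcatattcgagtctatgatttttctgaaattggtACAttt

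The stretches of 101 bases centred on the summits of the pooled regions near these genes are given on the plus strand of ce11, to show the DNA that the ranked signal was centred on. Capitals mark the words GAGAGA and ACACAC, which were searched on both strands. The pdl-1 summit stretch is chrII:7184144-7184244, that of prp-8 is chrIII:8166019-8166119 and that of plpr-1 is chrII:11224353-11224453. The cdc-48.1 stretch is chrII:10560169-10560269 and the nol-56 stretch is chrV:10351499-10351599.
pdl-1 summit: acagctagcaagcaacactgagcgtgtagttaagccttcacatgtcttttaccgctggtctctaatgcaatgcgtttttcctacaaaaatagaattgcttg
prp-8 summit: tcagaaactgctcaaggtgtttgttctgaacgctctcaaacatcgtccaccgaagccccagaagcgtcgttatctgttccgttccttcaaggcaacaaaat
plpr-1 summit: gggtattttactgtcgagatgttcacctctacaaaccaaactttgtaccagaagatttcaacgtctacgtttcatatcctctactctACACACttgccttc
cdc-48.1 summit: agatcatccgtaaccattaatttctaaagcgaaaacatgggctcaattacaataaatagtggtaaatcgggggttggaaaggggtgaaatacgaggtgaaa
nol-56 summit: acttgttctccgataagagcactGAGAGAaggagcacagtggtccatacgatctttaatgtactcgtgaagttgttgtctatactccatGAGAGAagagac
The nol-56 stretch holds GAGAGA at 2 places, the plpr-1 stretch holds ACACAC near its right end, and the other 3 hold neither word.

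None of the 216 snoRNA genes had any of the authors' 63 optimal peaks within 500 bases. The list is short, and 0.19% of all genes, 0.0418% of the positions in protein-coding bodies described next and 0.149% of those in host bodies met that condition, so that a count of 0 lies near the background. In the pooled list 102 of them (47.2%, exact binomial 95% interval 40.4 to 54.1) had a region within 500 bases, against 46.1% of all annotated genes, which include protein-coding genes with a median length of 2027 bases. A stretch of 127 bases, the median snoRNA length, placed at every possible start in protein-coding bodies met the same condition in 30.3% of positions, and in 37% of positions within the host bodies themselves. In the snoRNA genes' own hosts, averaged over the 216 genes, the share was 40.8%. A region of the top 3000 of the pooled list lay within 500 bases of 26 snoRNA genes (12.0%, interval 8.02 to 17.1). The same share was 6.97% over all genes, 3.18% over positions in protein-coding bodies, 6.94% over positions in host bodies and 9.93% over positions in each gene's own host. The 12.0% thus lay above each of these shares, while its interval took in the share of the own hosts. The intervals treat the genes as independent, although neighbouring snoRNA genes share regions.

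A region in the pooled list and in each replicate list was found for 46 snoRNA genes (21.3%), against 24.2% of all genes. Positions in protein-coding bodies met that condition in 9.55% of cases, positions in host bodies in 14.7%, and positions in own hosts in 17.9% on average. In replicate 1, 93 snoRNA genes (43.1%) had a region, against 46.3% of all genes, 30% of positions in protein-coding bodies, 35.5% of positions in host bodies and 36.5% in own hosts. In replicate 2, 100 (46.3%) had one, against 44.8%, 30.5%, 36.4% and 42.5% in the same order. No list held a region for 64 genes, 1 list did for 55, and 2 lists did for 51.

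The 102 genes drew on 112 distinct pooled regions. Their signal values ran from 5.59 to 18.0 with a median of 8.60, against a median of 7.61 and a highest value of 56.1 over the whole pooled list. Their median rank was 10391, against 12666.5 for 596 pooled regions elsewhere in the same hosts and 15169.5 for the 18962 regions with a summit in any protein-coding body. Of the 112 regions, 19.6% were in the top 3000, against 16.8% elsewhere in the hosts and 9.42% in protein-coding bodies. In replicate 1 the share in the top 3000 was 14% near snoRNA genes, against 15.4% elsewhere in the hosts and 9.61% in protein-coding bodies. In replicate 2 it was 18.2%, against 15.5% and 9.60%, which is the pooled order. The medians kept the pooled order in neither replicate. In replicate 1 the regions near snoRNA genes had a median rank of 16945, against 13664 elsewhere in the hosts and 15094.5 in protein-coding bodies. In replicate 2 these medians were 14230, 13805 and 15063 in the same order of places. The better median rank near snoRNA genes was thus seen in the pooled list and in neither replicate list when set against the rest of the hosts.

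**Figure D1:**
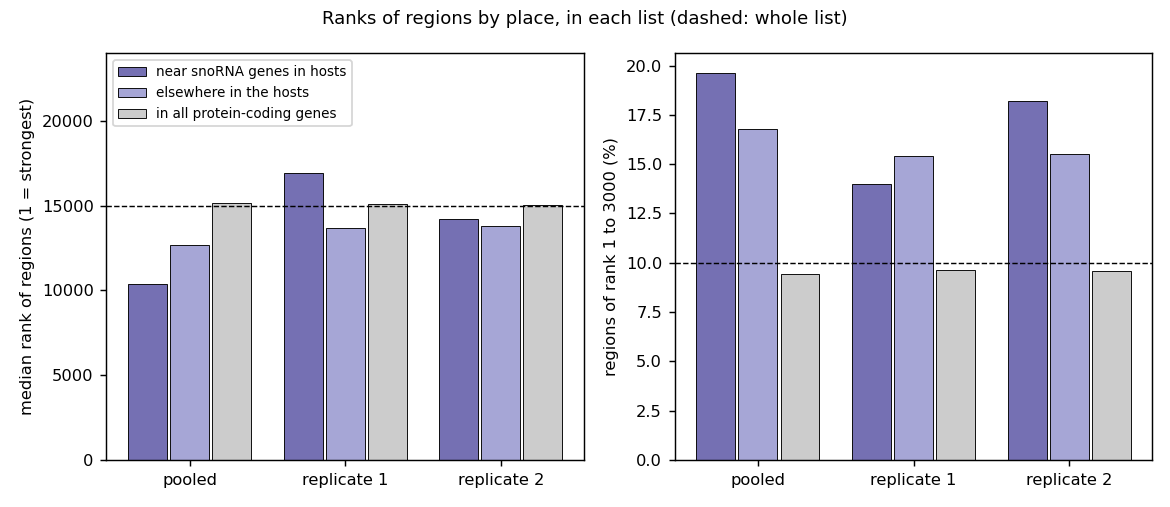
Bars give the median rank (left) and the percent of regions of rank 1 to 3000 (right) for regions within 500 bases of hosted snoRNA genes, elsewhere in their hosts and in all protein-coding genes, in the pooled list and each replicate list, with the whole list dashed. A low rank is a strong signal. The pooled medians are 10391 near snoRNA genes, 12666.5 elsewhere in the hosts and 15169.5 in protein-coding bodies, and the replicate medians do not keep that order.

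The best pooled rank near a hosted snoRNA gene was 267, with a signal value of 18.0, 360 bases downstream of F22D6.16. That gene lies in prpf-4, which encodes a relative of the splicing kinase PRP4. The pooled summit was outside the host body, past its 3′ end. Replicate 1 had rank 117 and signal 15.2 at nearly the same place. The best region of replicate 2 near this gene had rank 5496 and signal 4.97, with its summit on the other side of the gene. Ranks given for a replicate are those of its best region within 500 bases of the snoRNA gene, and that summit need not be the pooled summit. Next came C27H5.9 and C27H5.10, which lie in pdl-1, a relative of the mammalian prenyl-binding protein PDE6D, and are transcribed against it. A single pooled region of rank 287 and signal 17.8 lay between them, 116 bases upstream of C27H5.9 and 225 bases downstream of C27H5.10. In replicate 2 that region had rank 31 and signal 14.4. In replicate 1 no region was found near C27H5.10, and the region counted for C27H5.9 had rank 2939 with its summit elsewhere, 128 bases downstream of that gene. The replicate 1 list thus held no summit at the place that was strong in replicate 2.

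C50C3.13, in the gene for the central spliceosome protein PRP-8, had pooled rank 319 and signal 17.5, with rank 1471 in replicate 1 and rank 4643 in replicate 2. T06D8.11 in plpr-1 had pooled rank 387, with rank 494 in replicate 1 and no region in replicate 2. C06A1.8, in the gene for the ATPase CDC-48.1 that extracts proteins for degradation, had pooled rank 425, with rank 1958 in replicate 1 and none in replicate 2. Its summit lay 498 bases away, just inside the 500-base limit, so that this gene is counted by a margin of 2 bases. F39B2.14 in tmem-107, whose product belongs to the transition zone of cilia, had pooled rank 420, with rank 1003 in replicate 1 and rank 1589 in replicate 2. The summit lies 135 bases upstream of F39B2.14, whose gene starts 61 bases from the host 5′ end. F39B2.14 and C27H5.9 were the 2 genes with a region in the top 3000 of both replicates.

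**Figure D2:**
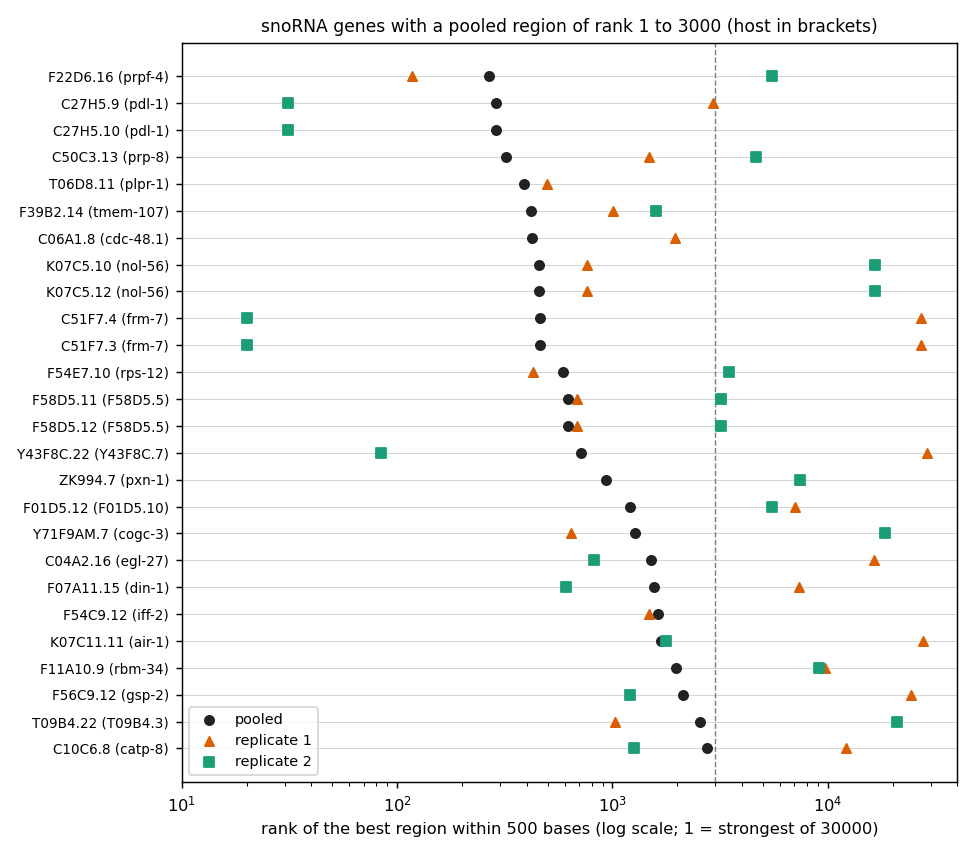
Pooled, replicate 1 and replicate 2 ranks of the hosted snoRNA genes in the top 3000 of the pooled list, on a log axis, with a dashed line at rank 3000 and no symbol where a list has no region. The symbols of a gene can lie far apart, as for C51F7.4 with pooled rank 463, replicate 1 rank 27154 and replicate 2 rank 20.

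C51F7.4 and C51F7.3 in frm-7, which encodes a FERM domain protein, shared a pooled region of rank 463 whose summit lay inside C51F7.4 and 70 bases upstream of C51F7.3. Replicate 2 had rank 20 and signal 15.6 there. The best region of replicate 1 lay downstream of both genes, with rank 27154 and signal 4.04. C51F7.4 overlaps a coding exon of frm-7 at its edge alone. That exon ends 1115 bases from the host 5′ end, where C51F7.4 starts, and the gene runs to base 1209. The rest of C51F7.4, the pooled summit at base 1154 and C51F7.3 all lie in the intron that follows. Y43F8C.22 in Y43F8C.7 also held the summit inside its body, with pooled rank 716, replicate 1 rank 28782 and replicate 2 rank 84. The gene F54E7.10 in rps-12, a protein of the small ribosomal subunit, had pooled rank 588 and ranks 429 and 3492 in replicates 1 and 2. Its pooled summit lay 232 bases upstream, while the gene starts 80 bases from the host 5′ end, so the summit was outside the host body. F58D5.11 and F58D5.12 in F58D5.5 shared a region of pooled rank 624, with rank 687 in replicate 1 and rank 3194 in replicate 2. These last 3 genes, with F39B2.14 and C27H5.9, were the 5 whose worst rank over the 3 lists was best, at 1589 to 3492.

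Beyond these genes and 2 in nol-56 that are described further on, 11 genes in 11 hosts were in the top 3000 of the pooled list, at ranks 934 to 2750. They lie in pxn-1 (a peroxidasin), F01D5.10, cogc-3 (a Golgi tethering subunit), egl-27 (an MTA-like chromatin protein), din-1 (a corepressor partner of DAF-12), iff-2 (translation factor eIF5A), air-1 (Aurora A kinase), rbm-34, gsp-2 (a catalytic subunit of protein phosphatase 1), T09B4.3 and catp-8 (a P-type ATPase). Of all 26 genes, 14 were also in the top 3000 of replicate 1, 11 in that of replicate 2, and 2 in both. Counting a missing region as the worse, 14 genes had the better rank in replicate 1 and 12 in replicate 2. Taking all hosted snoRNA genes, 55 had a region in both replicates, 38 in replicate 1 only, 45 in replicate 2 only and 78 in neither. Over the 55, the best ranks in the replicates had a Spearman correlation of -0.0586 and, on log2 ranks, a Pearson correlation of -0.0909. These are descriptions over genes, which can share a region. Such overlaps and correlations were not taken over all genes, so whether they are particular to hosted snoRNA genes was not tested.

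Some genes had a high-ranking region in 1 replicate and no pooled region within 500 bases. Y37E3.20 in pcyt-2.1 had rank 427 in replicate 2, and the pooled summit nearest to that summit, of rank 9439, was 970 bases from it. K02F3.15 in zip-2 had rank 752 in replicate 2, with the nearest pooled summit, of rank 429, 1014 bases from it. For C41C4.16 in ulp-4, which had rank 668 in replicate 1, a pooled summit of rank 614 lay 164 bases from the replicate summit but 551 bases from the gene, just past the limit. T08B2.13 in fars-1, for a phenylalanyl-tRNA synthetase subunit, had rank 488 in replicate 2, no region in replicate 1 and pooled rank 7147. The 500-base limit itself left close cases. Just inside it, at 497, 498 and 500 bases, were a region of rank 13681 near F07A11.15, the region of C06A1.8 and a region of rank 20417 near R151.11. Just outside, at 507 and 526 bases, were regions of rank 26339 near C16D2.4 and rank 6555 near Y46E12BL.11.

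**Figure D3:**
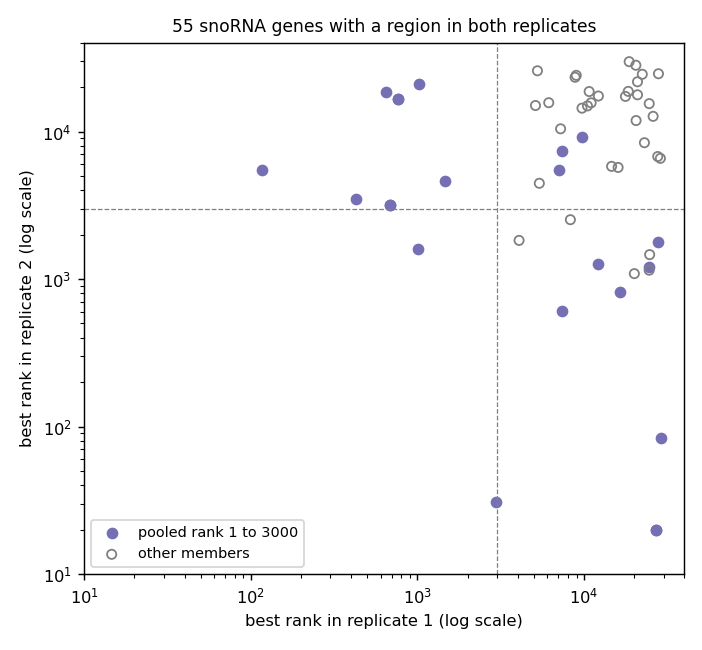
Best rank within 500 bases of each of the 55 hosted snoRNA genes with a region in both replicate lists, replicate 1 on the x axis and replicate 2 on the y axis, both log scales, with dashed lines at rank 3000 and filled points for a pooled rank of 1 to 3000. The Spearman correlation is -0.0586, and 2 genes lie in the top 3000 of both lists.

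Hosts with several snoRNA genes show how far the regions vary within a host. nol-56 encodes a core protein of box C/D snoRNA particles, and its 4 snoRNA genes carry ACA near the 3′ end. The pooled region of rank 457 and signal 16.4 had its summit between 2 of them, 196 bases upstream of K07C5.10 and 184 bases downstream of K07C5.12. Replicate 1 had rank 765 and signal 11.0 at the same base. The best region of replicate 2 had rank 16632 and signal 3.28. K07C5.11, which starts 142 bases from the host 5′ end, had a region 249 bases upstream at pooled rank 6232, outside the host body, and K07C5.18 had none in any list. The sequences of the 3 genes not yet shown are given to compare them with K07C5.10. K07C5.11 is at chrV:10352710-10352836, K07C5.12 at chrV:10351733-10351862 and K07C5.18 at chrV:10350780-10350912, all on the minus strand, and capitals mark the ACA.
K07C5.11: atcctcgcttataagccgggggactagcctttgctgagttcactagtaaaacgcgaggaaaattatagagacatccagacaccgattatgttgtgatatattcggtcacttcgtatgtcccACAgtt
K07C5.12: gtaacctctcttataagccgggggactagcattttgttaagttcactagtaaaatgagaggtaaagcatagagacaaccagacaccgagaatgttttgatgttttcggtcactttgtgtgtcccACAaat
K07C5.18: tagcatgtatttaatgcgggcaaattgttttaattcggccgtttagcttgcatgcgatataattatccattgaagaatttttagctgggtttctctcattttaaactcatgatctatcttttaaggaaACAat
K07C5.11 and K07C5.12 are 82.3% identical over 130 aligned columns and share a run of 21 bases. K07C5.10 and K07C5.18 are 71.5% identical over 137 columns and share a run of 18 bases. The remaining pairs were 50.3 to 53.3% identical. The K07C5.12 gene lay beside the region of rank 457 and its relative K07C5.11 beside that of rank 6232. K07C5.10 lay beside the region of rank 457 too, and its relative K07C5.18 had no region. Whether likeness of sequence bears on rank was not tested.

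rpl-6, for a protein of the large ribosomal subunit, holds 3 snoRNA genes. R151.11 had a pooled region at rank 20417, exactly 500 bases away, while R151.12 and R151.13 had none in any list. top-2, for DNA topoisomerase II, holds 3 snoRNA genes with no region in any list. The best region in that host or within 500 bases of it had pooled rank 7822. In prp-8, C50C3.14 had no region in any list beside the strong one of C50C3.13. In all, 5 of the 64 genes with no region lay in a host where another snoRNA gene had a pooled region.

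**Figure D4:**
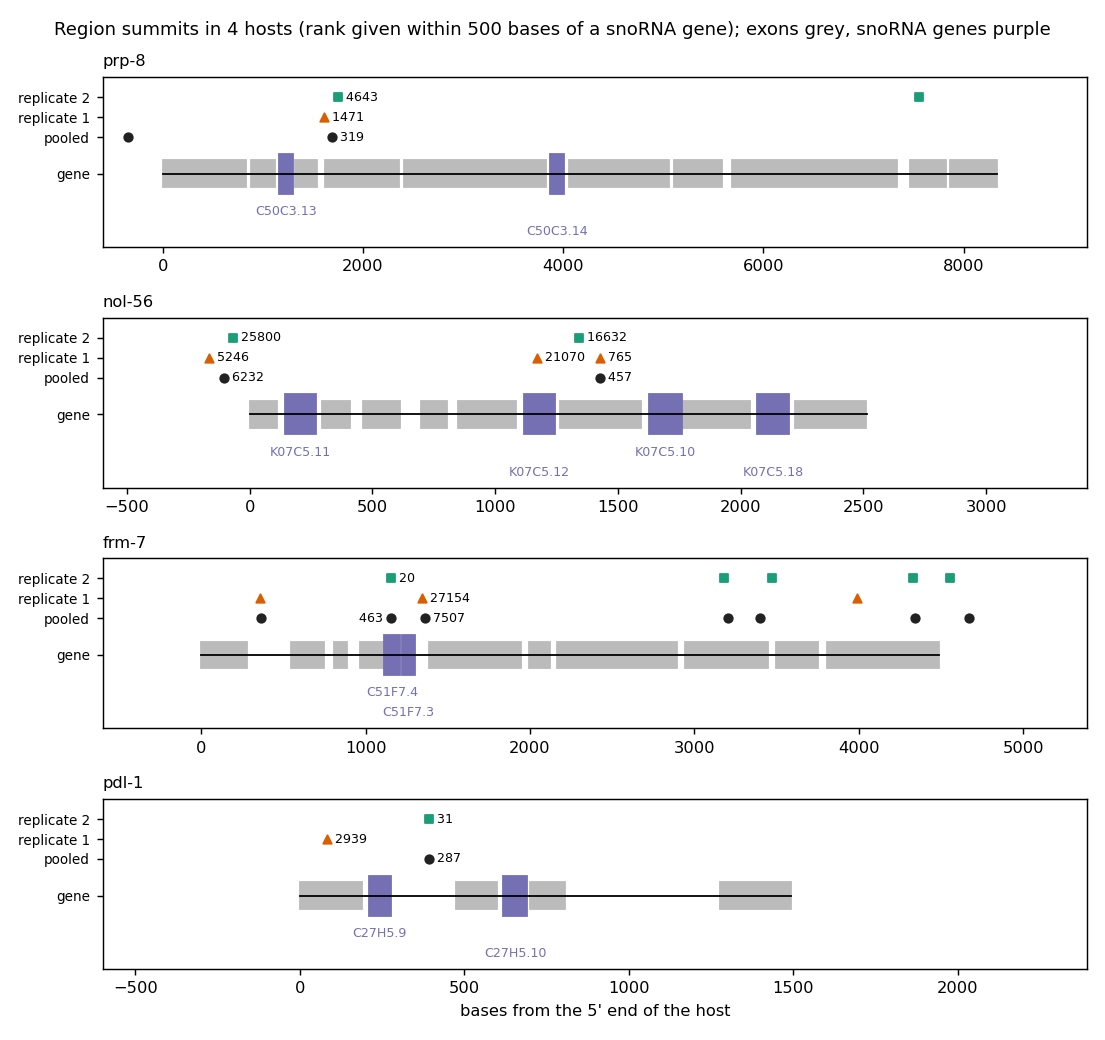
Summits of regions of the 3 lists along 4 hosts, in bases from the host 5′ end, with exons grey, snoRNA genes purple and the rank printed within 500 bases of a snoRNA gene. In nol-56 the summit of rank 457 falls between K07C5.10 and K07C5.12, and K07C5.18 has no summit within 500 bases.

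Of the 192 hosts, 93 (48.4%) had a pooled region within 500 bases of a snoRNA gene, and in 22 it was in the top 3000. Regions of a host were counted in its body and up to 500 bases beyond either end. In 41 of the 93 the region near the snoRNA gene was the best one counted for the host, and in 8 of these hosts it was the sole region. Among the 85 with more than 1 region it was the best in 33. In 15 hosts it also lay within 500 bases of the host 5′ end, where the snoRNA gene and the host promoter cannot be told apart. A further 82 hosts had a region but none near a snoRNA gene. The same counts were not taken for other positions in these hosts, so they have no background beside them. Whether they are particular to snoRNA genes was not tested. The 13 hosts with an rpl or rps symbol, for proteins of the cytosolic ribosome, hold 19 snoRNA genes, 8 of them with a region. Their best ranks were 588 for rps-12, 3265 for rpl-26, 13081 for rps-29, 16674 for rpl-24.1, 20417 for rpl-6 and 29603 for rps-13. The summits for rps-12, rpl-24.1 and rpl-6 lay outside the host body, upstream of the host 5′ end and within 500 bases of it. rpl-15, rpl-2, rpl-4, rpl-7, rpl-7A, rps-23 and rps-4 had none near a snoRNA gene. The rpl and rps hosts thus had a region near 8 of 19 snoRNA genes, 1 of them in the top 3000, against 94 of 197 and 25 in hosts with other symbols. Hosts with other symbols can also encode ribosomal proteins, as does ubl-1, whose 2 snoRNA genes had no pooled region. Such hosts are not listed in full here, and others of them may have a region. The comparison is thus between symbols and not between kinds of protein. An optimal peak of rank 50, within 500 bases of the rpl-15 5′ end, lay 530 bases from K11H12.13, just outside the limit.

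Genes with and without regions were counted by strand and place within the host. A pooled region was near 17 of 33 snoRNA genes whose hosts are all on the opposite strand and near 85 of 183 with a host on the same strand. It was near 79 of 169 genes wholly in an intron and 23 of 47 that overlap an exon. Over 1000 bases from the host 5′ end 69 of 146 had a region, and within that distance 33 of 70. Spearman correlations of rank with distance from the host 5′ end, host length, snoRNA length and G+C content were 0.118, 0.185, 0.0475 and 0.0328 over the 102 genes. By chromosome the count was 18 of 44 on I, 24 of 43 on II, 17 of 44 on III, 16 of 36 on IV, 24 of 39 on V and 3 of 10 on X, where none was in the top 3000. Shares over all genes were not taken by chromosome, so whether these differences are particular to snoRNA genes was not tested. snoRNA genes outside protein-coding bodies had a region in 62 of 130 cases (47.7%), and 13.1% were in the top 3000. For tRNA genes inside protein-coding bodies these shares were 48.6% and 10.3%, for miRNA genes there 38.7% and 8.49%, for snRNA genes 28.6% and 4.76%, and for genes of biotype ncRNA 36.8% and 6.25%.

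The 102 genes and 112 regions make 121 pairs. The summit lay upstream of the snoRNA gene in 68 pairs (56.2%), downstream in 44 (36.4%) and inside it in 9 (7.44%), where the bodies make up 11.7% of the window and each flank 44.2%. The median distance was 169 bases. Among the 26 pairs in the top 3000 the summit lay downstream in 12, upstream in 11 and inside in 3. The density of pooled summits was 0.764 per kb at 1 to 100 bases from a gene, 0.509 at 101 to 250, 0.426 at 251 to 500, 0.468 at 501 to 1000 and 0.398 at 1001 to 2000, and 0.315 inside the genes, against 0.385 over host bodies. In replicate 1 the density was 0.524 inside the genes, 0.579 at 1 to 100 bases, 0.324 at 251 to 500 and 0.440 at 501 to 1000. In replicate 2 it was 0.385 inside, 0.648 at 1 to 100, 0.444 at 251 to 500 and 0.398 at 501 to 1000. Beyond 250 bases the density did not fall steadily in the pooled list or in either replicate. Within 1 to 100 bases, tRNA genes inside protein-coding bodies had 0.845 and snoRNA genes outside them 0.692, and genes of the Ensembl biotype ncRNA inside protein-coding bodies 0.447.

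**Figure D5:**
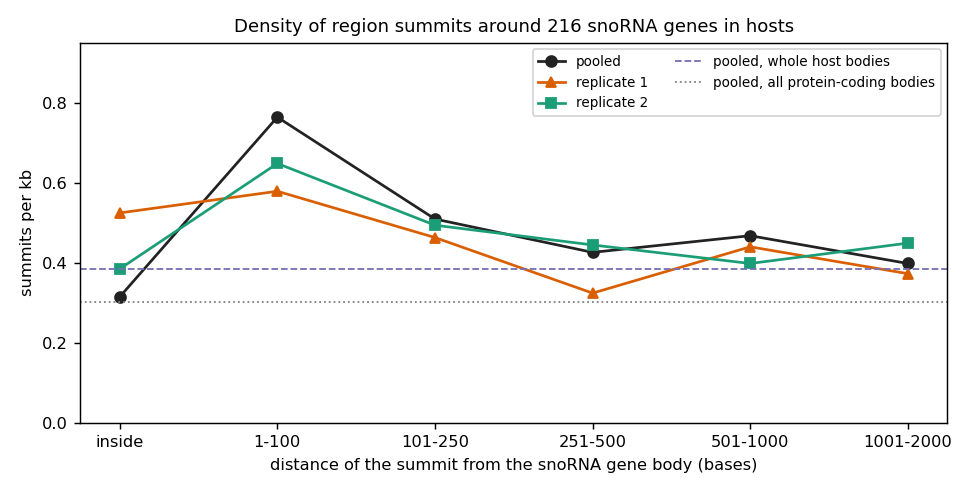
Density of region summits, in summits per kb, inside hosted snoRNA genes and in bins of distance from them, in the pooled list and each replicate list. Dashed and dotted lines give the pooled density over host bodies (0.385) and all protein-coding bodies (0.302). The pooled value is 0.764 at 1 to 100 bases and 0.398 at 1001 to 2000 bases.

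Of the 112 summits, 58 (51.8%) lay in introns, against 32.3% of all pooled summits, where the choice of genes inside hosts bears on this share. G+C content within 100 bases of the summit averaged 39.9 ± 7.13% (SD over 112 regions), against 36.4 ± 6.87% in the whole list. In the top 3000 it was 41.2 ± 6.94% over the 22 regions near snoRNA genes and 38.5 ± 7.07% over all, and the part of base composition in the ranks was not tested. GAGAGA was within 100 bases of 19 of the 112 summits (17.0%, against 13.1% of all pooled summits) and ACACAC of 17 (15.2% against 8.04%). Among the 22 strongest regions these were 6 (27.3% against 20.4%) and 3 (13.6% against 12.2%). TGATAC and TGACAC were within 100 bases of 7.14% and 9.82% of the summits, against 6.84% and 8.07% of all, and CGTCTC of 8.04%, against 6.79%. All words were searched on both strands. A match is a description of the letters and not of a binding site.

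In the snoRNA genes themselves, 9 (4.17%) had both TGATGA in their opening 15 bases and CTGA in their last 15, and 72 (33.3%) had ACA in their last 10. Stretches of the same length just upstream had these in 0 and 19 (8.80%) cases. A pooled region was near 6 of the 9 genes with both C/D words, 34 of 71 others with ACA and 62 of the remaining 136. The share over all 216 genes was 47.2%, which lies within the interval of the 9 genes (29.9 to 92.5%). In the top 3000 were 1 of the 9, 10 of the 71 and 15 of the 136.

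The genes for proteins of snoRNA particles and their assembly were looked at as a list of 11. A pooled region lay in or within 500 bases of the body of 7, and 1 of them, nol-56, was in the top 3000. Over all protein-coding genes these shares were 64.1% and 11.0%, so that both counts lie near the background. Within 500 bases of the 5′ end 5 of the 11 had a region, none in the top 3000. The share of 5′ ends over all genes was not taken, so these counts have no background beside them. fib-1, for fibrillarin, had pooled rank 3590, with rank 520 in replicate 2 and none in replicate 1. nol-58, for the partner of NOL-56, had rank 11034, and snu-13, for the protein that binds the C/D fold, rank 14653. Of the assembly helicases, ruvb-1 had rank 6409 and ruvb-2 rank 29921. The exonuclease gene xrn-2 had rank 7480. dkc-1, for dyskerin, had no pooled region and rank 16453 in replicate 1, and nola-3, for a small H/ACA protein, had rank 2743 in replicate 1 and no pooled region. The genes Y48A6B.3 and garr-1 for other H/ACA proteins had no pooled region.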

How the data were processed

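ChIP-seq for UNC-39 was deposited for 2 biological replicates. The authors deposited a list of regions for each replicate, a pooled list and an optimal list, on ce10 and ce11; the ce10 lists were not used here. Per the deposited notes with the samples, each list of peaks and background came from the alignments of the replicates and a further file whose origin is not stated. The column 7 signal values, used for every rank, are the authors' own values and their scale is not given. The authors' deposited −log10 q-values served for an alternative ranking. Aligner and caller: not given in the sources used here. Read depth is unknown.

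Genes came from Ensembl release 115 and sequence from the RefSeq copy of WBcel235. Counts and ranks were computed with Python 3.11.15, numpy 2.4.6, pandas 2.3.3 and scipy 1.17.1, and figures with matplotlib 3.10.9. Intervals are exact Clopper-Pearson at 95% and cover counting over genes only. The assignment of summits to genes was tested on simulated data. The members and lists were chosen with earlier results of these data known. Genes named are the 10 with the best pooled rank, the 5 with the best worst rank over 3 lists, hosts with 3 or more snoRNA genes, and 3 genes with no region in hosts where another has one. Further genes in the top 3000 of any list, those near the distance limit, ubl-1 and the rpl and rps hosts were named after their values were seen. The lin-14 genes and the snoRNA genes outside hosts were also named outside that rule. Alternatives were distances of 250 and 1000 bases, overlap with the region, strand, introns alone, each replicate alone, other rank limits, −log10 q, and neighbours counted once.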

Additional observations from a re-analysis of the deposited data

How the results depend on the processing

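No alternative used a test, since there is a single group of 2 samples. The share of hosted snoRNA genes with a pooled region (47.2%) was 30.6% at 250 bases, 66.7% at 1000 bases and 27.8% where the region had to overlap the gene. The share in the top 3000 (12.0%) was 19.9% at 1000 bases, 7.87% by overlap and 7.87 to 10.2% with a replicate left out (7.87% without replicate 2, 10.2% without replicate 1). The share with a region in all 3 lists (21.3%) was 13.0% at 250 bases, 40.3% at 1000 bases, 11.6% by overlap and 29.4% for the genes with a host on the opposite strand. The median rank of 10391 was 8187 at 250 bases, 7990 by overlap, and 14230 to 16945 with a replicate left out (16945 without replicate 2), where each replicate list has its own ranks. Distance limits move these counts by construction; the cause of the other changes was not tested. Restricting to introns, to hosts on the same strand or to neighbours counted once moved these 4 values by less than the 95% interval of the shares and the spread taken for the median. So did restricting to genes over 1000 bases from the host 5′ end, an alternative chosen after seeing the data. For the top share alone, limits at rank 1500 and 6000 gave 8.33% and 16.7%. For the median rank alone, ranking by −log10 q gave 10359.5. Depth is unknown, which limits what regions of low rank can show.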

Other observations

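Among the 6 snoRNA genes that overlap a protein-coding body in part, 4 had a pooled region and 1 of them, T02E1.9 at spe-12, had rank 103. Outside protein-coding bodies, optimal peaks of pooled ranks 26 and 34 lay near F59C6.15 and M7.15. The 2 snoRNA genes hosted by lin-14 had no pooled region and rank 5138 in replicate 2. The best pooled region in that host or within 500 bases of it had rank 92. The region near C06A1.8 had rank 425, against rank 128 for the region at the 5′ end of its host cdc-48.1.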
